A study of Mus musculus with 35 samples.

Results

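Fetal and adult hematopoietic progenitor cells (HPCs) of the mouse were compared by the regions of open chromatin called in each. Each age had 1 peak list. The fetal HPC list came from embryos at E16.5, and the adult HPC list from animals aged 8 weeks, with 3 libraries pooled into each. Peaks that touched or overlapped were merged into regions on chromosomes 1 to 19 and X, which left 90464 fetal and 90698 adult regions, of 891747 regions in the 12 peak lists of the series. Regions of the 2 lists that overlapped by at least 1 bp were shared, and those without such an overlap were fetal-specific or adult-specific. The remaining 10 lists served to follow these regions. They came from HPCs at postnatal days 7, 14 and 21 (P7, P14, P21) and from hematopoietic stem cells (HSCs) at E16.5, P14 and 8 weeks. The others came from HPCs and HSCs of P7 wild-type and Ifnar knockout animals of a separate set. All animals were on a B6 background. The labels give the adult HPCs as wild type, describe the fetal ones as wt, and name no treatment. They give the cells as hematopoietic progenitors without the surface markers or the organ they were taken from.

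Progenitors are the dividing descendants of stem cells that supply red cells, platelets, myeloid and lymphoid cells. In the fetus they expand in the liver, before blood formation moves to the marrow, and fetal and adult progenitors are known to differ in the lineages they favour. ATAC-seq maps DNA that is open to the Tn5 transposase, which marks gene starts and distal regulatory elements. Type I interferon acts through the Ifnar receptor and interferon regulatory factors (IRFs), which bind repeats of GAAA in the promoters of antiviral genes. GATA factors, of which GATA1 drives red cell and platelet development, bind the core letters GATA.

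The sequences that follow are the 250 bases before the starts of genes whose start lay in a list-specific region, from RefSeq on GRCm38.p6, written 5′ to 3′ on the strand of the gene. They are shown because the letters of interferon-responsive promoters were more frequent at adult-specific starts. For the adult-specific starts, capitals mark each match to GAAANNGAAA, searched on either strand and allowing overlap, which was present in 2.98% of the 21045 starts of protein-coding genes in the table. The first 6 are the strongest adult-specific starts with a match, and Isg15 was added as the best-known interferon-stimulated gene among the rest. They were chosen after their values were seen.
Sqor (chr2:122771463-122771712, plus strand): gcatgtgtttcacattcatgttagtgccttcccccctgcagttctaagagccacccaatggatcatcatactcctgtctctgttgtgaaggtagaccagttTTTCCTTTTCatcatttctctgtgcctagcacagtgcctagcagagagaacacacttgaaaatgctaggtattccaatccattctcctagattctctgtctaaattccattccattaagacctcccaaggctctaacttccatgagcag
Ifi206 (chr1:173491319-173491568, minus strand): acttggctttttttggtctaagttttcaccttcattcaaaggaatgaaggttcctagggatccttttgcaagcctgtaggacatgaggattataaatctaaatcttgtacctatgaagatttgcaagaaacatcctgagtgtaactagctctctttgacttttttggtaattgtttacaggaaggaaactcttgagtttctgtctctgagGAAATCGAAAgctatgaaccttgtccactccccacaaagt
Cd300c (chr11:114960508-114960757, minus strand): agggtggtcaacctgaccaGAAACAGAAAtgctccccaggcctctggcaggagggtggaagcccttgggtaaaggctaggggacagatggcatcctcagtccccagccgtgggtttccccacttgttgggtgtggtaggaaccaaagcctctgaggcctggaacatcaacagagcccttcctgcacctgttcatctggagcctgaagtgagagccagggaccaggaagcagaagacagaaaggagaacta
Ifit1bl1 (chr19:34601969-34602218, minus strand): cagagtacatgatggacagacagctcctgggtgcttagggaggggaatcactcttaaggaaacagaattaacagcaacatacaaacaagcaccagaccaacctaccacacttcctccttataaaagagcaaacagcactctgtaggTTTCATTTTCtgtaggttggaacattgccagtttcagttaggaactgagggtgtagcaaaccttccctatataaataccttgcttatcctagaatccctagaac
Oas3 (chr5:120777660-120777909, minus strand): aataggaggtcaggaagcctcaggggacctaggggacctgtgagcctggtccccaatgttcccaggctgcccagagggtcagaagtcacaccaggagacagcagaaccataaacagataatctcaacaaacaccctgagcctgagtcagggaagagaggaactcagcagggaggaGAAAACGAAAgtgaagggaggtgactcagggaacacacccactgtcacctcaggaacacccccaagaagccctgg
Phf11b (chr14:59341331-59341580, minus strand): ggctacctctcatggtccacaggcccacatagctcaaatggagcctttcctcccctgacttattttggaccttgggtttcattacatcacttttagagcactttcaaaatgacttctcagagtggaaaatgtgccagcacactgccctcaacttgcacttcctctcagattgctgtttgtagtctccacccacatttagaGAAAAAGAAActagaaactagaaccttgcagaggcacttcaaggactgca
Isg15 (chr4:156200819-156201068, minus strand): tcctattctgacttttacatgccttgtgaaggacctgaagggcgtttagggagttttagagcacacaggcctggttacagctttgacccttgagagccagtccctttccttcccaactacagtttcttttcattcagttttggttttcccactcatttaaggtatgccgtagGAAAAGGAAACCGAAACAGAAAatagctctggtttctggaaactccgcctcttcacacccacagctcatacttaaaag

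Isg15, a ubiquitin-like protein that interferon induces, held 3 overlapping matches from 78 bases before its start, and the other 6 held 1 match each. In Ifi206, Oas3 and Phf11b, which belong to interferon-induced gene families, the match lay 40, 75 and 50 bases before the start, and in Ifit1bl1, also of such a family, 104 bases before it. In Sqor, a mitochondrial sulfide oxidase, and Cd300c, a receptor of myeloid cells, it lay at 149 and 231 bases.

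Fetal-specific starts are shown for Lin28b, the RNA-binding protein of fetal blood formation, for Kel, a red cell surface protein of the Kell blood group, and for Gata1. Capitals mark AGATAA on either strand in Lin28b and Kel, letters that 8.84% of all these starts held. Gata1 had no match in this window, and its capitals mark CG pairs. The listed starts of Lin28b and Gata1 lie inside their annotated gene bodies.
Lin28b (chr10:45470202-45470451, minus strand): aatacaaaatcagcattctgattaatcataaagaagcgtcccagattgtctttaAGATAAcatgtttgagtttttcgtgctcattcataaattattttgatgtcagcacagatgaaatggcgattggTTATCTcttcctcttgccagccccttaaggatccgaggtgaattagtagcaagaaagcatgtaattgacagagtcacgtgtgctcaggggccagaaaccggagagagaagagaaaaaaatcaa
Kel (chr6:41704326-41704575, minus strand): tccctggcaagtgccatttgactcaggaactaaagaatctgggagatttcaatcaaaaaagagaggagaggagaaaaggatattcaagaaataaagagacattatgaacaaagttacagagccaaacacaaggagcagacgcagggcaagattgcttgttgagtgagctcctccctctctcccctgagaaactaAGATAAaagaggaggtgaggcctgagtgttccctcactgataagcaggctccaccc
Gata1 (chrX:7967911-7968160, minus strand): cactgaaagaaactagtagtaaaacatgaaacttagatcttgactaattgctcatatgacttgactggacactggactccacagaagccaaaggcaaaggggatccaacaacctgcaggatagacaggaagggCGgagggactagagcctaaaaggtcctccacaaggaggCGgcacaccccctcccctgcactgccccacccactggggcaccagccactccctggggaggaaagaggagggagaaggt

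Values used below are the authors' own, given per peak by their peak caller. The strength of a region is its highest −log10 p, and it was used within a list and never compared between lists. Its median was 39.2 in the fetal and 57.3 in the adult HPC list, and regions had a median width of 481 and 466 bp. A region was called strong when its strength lay in the upper 50% of its own list. Each list pooled its libraries, so no value has a spread between replicates and no test between ages was possible. Intervals are exact Clopper-Pearson 95% intervals that cover counting error alone, and read depth was not among the values used. Absence from a list means that no peak was called, and it does not show that the DNA was closed. In a mixed population, fewer cells of a type and less open chromatin per cell cannot be told apart. Of the 3 fetal HPC libraries, 2 carry a description that names the fetal HPC list and 1 names the P21 HPC list, while 1 P7 HPC library names the fetal list. All 3 adult HPC libraries name their own list, but 3 of the 5 adult HSC libraries name another. Because the lists are pooled, no result could be repeated without these libraries.

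The 8 progenitor markers were read first. All 8, among them Kit, Cd34, Cd48, Flt3, Ly6a, Spi1 and Runx1, had at least 1 region within their gene body and 10 kb on each side in both lists, from 1 for Ly6a in fetal HPCs to 17 for Runx1 in fetal HPCs. The 8 hepatocyte markers held 19 regions in fetal and 20 in adult HPCs, with none of the strong ones list-specific, and Serpina1a had no region in either list. Markers of endothelium (29 fetal and 27 adult regions), stroma (29 and 30) and macrophages (33 and 37) had regions in both lists as well, so the presence of regions at markers does not identify the cells.

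Most strong regions of progenitors were found at both ages. Of all regions, 22841 (25.2%, 24.97 to 25.5) were fetal-specific and 22480 (24.8%, 24.5 to 25.1) were adult-specific. Of the strong ones, 2462 of 45232 (5.44%, 5.24 to 5.66) were fetal-specific and 2901 of 45398 (6.39%, 6.17 to 6.62) were adult-specific. In HSCs the corresponding strong shares were 3.42% and 4.53%. Absence from the other list fell steeply with strength. In the weakest 10% of the fetal list 69.98% of regions were missing from adult HPCs, against 0.144% (13 of 9047) in the strongest 10%. The adult list went from 66.6% to 0.386% (35 of 9070). At the limit for strong, the weakest strong region of the fetal list had a −log10 p of 39.167 and the next below it 39.16. In the adult list the weakest strong regions stood at 57.3315, and all regions tied at that value counted as strong.

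**Figure D1:**
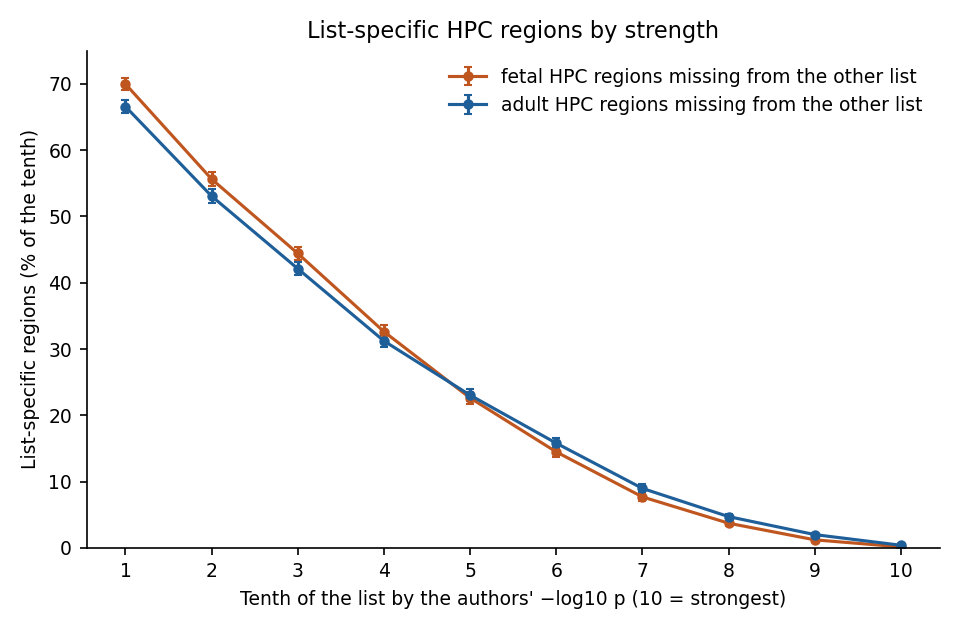
Percent of regions missing from the other HPC list (vertical axis) in each of 10 equal bins of the fetal (orange) and adult (blue) list by the authors' −log10 p (horizontal axis, 10 strongest), with exact 95% intervals. Both curves fall from the weakest bin, at 69.98% and 66.6%, to the strongest, at 0.144% and 0.386%.

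Strong list-specific regions lay farther from the ends of genes than shared ones at both ages. Many were inside a gene body: 48.6% (46.6 to 50.6) of those specific to fetal and 51.6% (49.8 to 53.5) of those specific to adult HPCs, against 63.3% and 63.0% of shared strong regions. Their median distance to the nearest end of a protein-coding gene was 36.2 kb for fetal-specific and 27.6 kb for adult-specific regions, against 10.9 and 12.2 kb for shared strong regions of the fetal and adult lists. More than 50 kb from any gene end lay 43.1% (41.1 to 45.0) of the strong regions found in fetal HPCs alone and 35.4% (33.7 to 37.2) of those found in adult HPCs alone, and 23.5% and 24.8% of the shared ones. Few of them lay at gene starts. A listed gene start was overlapped by 117 strong fetal-specific regions (4.75%, 3.95 to 5.67) and by 53 strong adult-specific ones (1.83%, 1.37 to 2.38), so that the fetal-specific regions held a larger share at both extremes. Shared regions overlapped a start in 23.3% and 21.9% of cases. Shared regions were also wider, with medians of 635 and 600 bp against 501 and 490 bp. Among the strong regions of each list the shared ones were stronger too. Their median −log10 p was 96.5 against 52.4 in the fetal and 147.5 against 80.1 in the adult list. Position at equal strength was not tested.

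The list-specific share was highest in very long genes, although these held 8.37% of all strong fetal-specific regions, against 26.7% in genes of 50 to 500 kb and 12.8% in shorter ones. Strong regions were counted in the bodies of 223 genes over 500 kb. Of the 2129 strong fetal HPC regions there, 206 (9.68%, 8.45 to 11.01) were fetal-specific, and of the 2076 strong adult regions 150 (7.23%, 6.15 to 8.42) were adult-specific. In the 15140 genes under 50 kb the shares were 2.58% (2.30 to 2.87) and 3.07% (2.77 to 3.40), and in the 4564 genes of 50 to 500 kb they were 4.74% and 6.80%. Of all 21631 protein-coding genes, 6.93% had at least 1 strong fetal-specific and 8.07% at least 1 strong adult-specific region in the gene body and 10 kb on each side. The genes with most fetal-specific strong regions were Csmd1, Lsamp and Sgcz with 6 each and Auts2, Nckap5, Cntnap5a and Nrg3 with 5 each. Csmd1, a complement control protein, had 34 regions of any strength in fetal and 10 in adult HPCs. Lsamp, a neuronal adhesion protein, had 48 and 23, and Cntnap5a, of the contactin-associated family, had 17 and 2. Ctnnd2, which encodes delta-catenin, led the adult-specific regions with 6 and went the other way, from 16 regions in fetal to 30 in adult HPCs. Dlg2, a synaptic scaffold, had 5 adult-specific and 1 fetal-specific strong region. Elmo1, an adaptor of cell migration, and Gse1 had 4 and 1 each. Of 7 neuron markers, Syt1, a synaptic vesicle calcium sensor, had 18 fetal and 7 adult regions, and a region over the start of Gabrg1, a GABA receptor subunit (chr5:70842852-70843793, −log10 p 60.2), was called in fetal HPCs and fetal HSCs and in none of the other 10 lists. Rbfox3, a splicing factor of neurons, had 4 fetal and 7 adult regions and a strong adult-specific one (57.3). Map2 had 6 in each list, and the start of Tubb3 had an adult-specific region.

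Regions were named by a gene when they lay within 50 kb of an end of one with a regular name. The strongest fetal-specific region lay in the first part of the imprinted gene Peg3 (chr7:6728163-6729039, mm10). Its −log10 p was 356.6 in fetal HPCs. It was called in 10 of the 12 lists and missing from adult and P21 HPCs. Next to it lay a further fetal-specific region of strength 141.3, called in fetal and adult HSCs and, among the other HPC lists, at P7 alone (20.9). The start of Peg3 itself was open in both HPC lists. Others that led the fetal-specific regions within that distance lay at Cd226 (315.7), an adhesion receptor of T cells, natural killer cells and platelets, at Oprk1 (249.2), an opioid receptor, and at Trim30d (234.6). Lmo1, a transcriptional cofactor, lay 23.2 kb from a region of 194.4, and Esf1 22.1 kb from one of 193.3. With no limit on distance, regions whose nearest genes were Cxxc4 (324.0), Api5 (300.6) and Dpp10 (265.5) stood among them.

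Within 50 kb of a gene end, the leading adult-specific region lay 0.202 kb from an end of Hjurp, a centromere chaperone, with a −log10 p of 653.8, and it was called in 10 of the 12 lists. It was followed by regions in Tcof1 (610.0), a ribosome biogenesis factor, Pdlim5 (564.4), a cytoskeletal adaptor, Ell2 (522.4), an elongation factor, and Mgat4b (481.6), a glycosyltransferase. The Mgat4b region was called in all lists but that of fetal HPCs. The Ell2 region was called in fetal HSCs too, whereas those at Tcof1 and Pdlim5 were called in neither fetal list. With no limit on distance, the region nearest to Chrm2 came first (676.1), and others nearest to Marcks (569.4), Macrod2 (537.6), Fgf9 (485.1) and Ccdc88a (482.3) stood among them.

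The list of red cell and platelet genes held more regions in fetal progenitors, with the largest difference at Sox6 (18 fetal and 12 adult). Several red cell genes, such as Tfrc, Hba-a1, Hbb-bt, Slc4a1, Car2 and Ermap, had equal numbers in both lists. Platelet genes had similar numbers at both ages. The 26 genes of the red cell and platelet list held 6 strong fetal-specific regions of 58 strong fetal regions (10.3%, against 5.44% genome-wide) and 2 adult-specific regions of 54 (3.70%, against 6.39%). With all strengths counted, 36 of 119 regions were fetal-specific and 19 of 103 adult-specific, against 25.2% and 24.8% genome-wide. In the upper 25% of each list the direction turned, with 0 fetal-specific regions and 1 adult-specific region. Gata1 had 2 regions in fetal HPCs and none in adult HPCs. Its listed start lies inside the annotated gene body, as do both regions. One lay over this start, with a low −log10 p of 9.44, and the other 3.6 kb before it (chrX:7971093-7971763), with 50.5. The latter was called also in adult HSCs (72.7), P14 HSCs (15.8), P14 HPCs (9.15) and P7 knockout HPCs (42.6). A region at Alas2, the enzyme that starts heme synthesis in red cells, had a strength of 53.8 in fetal HPCs and was in none of the other 11 lists. Hbb-y, an embryonic globin, had a fetal-specific region of 51.5 about 6.1 kb before its start. Ank1, the ankyrin of the red cell skeleton, had 1 such region inside it (47.1). A further one of 53.8 counted for Ank1 lay in the neighbouring gene Nkx6-3 and was called in 9 of the 12 lists. Zfpm1, the GATA1 cofactor FOG1, had 1 of 41.3. Among platelet genes, Itga2b and Pf4 had 4 regions and Gp9 had 5 in each list, Gp1ba had 3 fetal and 4 adult ones, and Gp6 had none. The start of Epor, the erythropoietin receptor, had a fetal-specific region that was not strong, among 3 regions in each list. Klf1, an erythroid factor, had 4 fetal and 5 adult regions with no strong list-specific one, and Hbb-bh1 had no region in either list. The 2 adult-specific regions of this list were both in Bcl11a, the repressor of fetal globin genes (251.9 and 102.7). Of 5 markers of mature red cells, Alas2 had the single strong fetal-specific region. The list of mature markers held 11 regions in fetal and 8 in adult HPCs. The part of mature red cells in these differences was not tested.

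Lin28b had several regions in fetal HPCs that were missing from adult HPCs. It had 11 regions in fetal and 4 in adult HPCs, and 7 of the 11 were fetal-specific while all 4 adult ones were shared. Its listed start lies inside the annotated gene body. A strong region with its summit 15.6 kb (fetal, 84.7) and 16.2 kb (adult, 57.7) before this start was shared by both lists. The fetal-specific region over the listed start (chr10:45470002-45470615), whose sequence is given above, lay 15.7 kb from the nearest gene end. This fetal-specific region had a −log10 p of 42.0. It was called with 32.6 at P7 and 62.4 at P14 in HPCs, and was missing at P21 and in adult HPCs, but adult HSCs had it (132.4). The region 3.6 kb before this start (51.0 in fetal HPCs), also inside the gene body, was called in fetal HSCs (38.0) and in no other list. A shared region 0.777 kb past this start was strong at both ages, with 41.7 and 105.3 in their own lists.

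The 14 genes of the fetal programme, Lin28b included, had 5 fetal-specific of 44 strong fetal regions (11.4%, against 5.44% genome-wide) and 2 adult-specific of 34 strong adult regions (5.88%, against 6.39%). In the upper 25% they had 1 of each. Igf1r, the receptor of insulin-like growth factor, had 2 fetal-specific regions, of 65.0 and 88.5. Igf2bp3, an RNA-binding partner of the LIN28B pathway, had 1 strong region of each kind. Its fetal-specific region (chr6:49215333-49215727, 119.4) was called in every list except those of adult HPCs and adult HSCs. Hmga2, a chromatin protein that let-7 microRNAs repress, had 5 fetal-specific and 1 adult-specific region, none of them strong. The 22 imprinted genes had 6 fetal-specific regions of 48 strong fetal regions (12.5%, against 5.44% genome-wide) and 1 adult-specific of 36 (2.78%, against 6.39%). Within 50 kb of the genes the counts were 7 and 5. Besides Peg3 and its neighbours Zim1 and Usp29, Grb10 and Snrpn had 1 fetal-specific region each. Kcnq1 had the adult-specific one (208.7), which was called in all lists except fetal HPCs. The 2 regions at Peg3 fall within 10 kb of Usp29 too and were counted once.

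**Figure D2:**
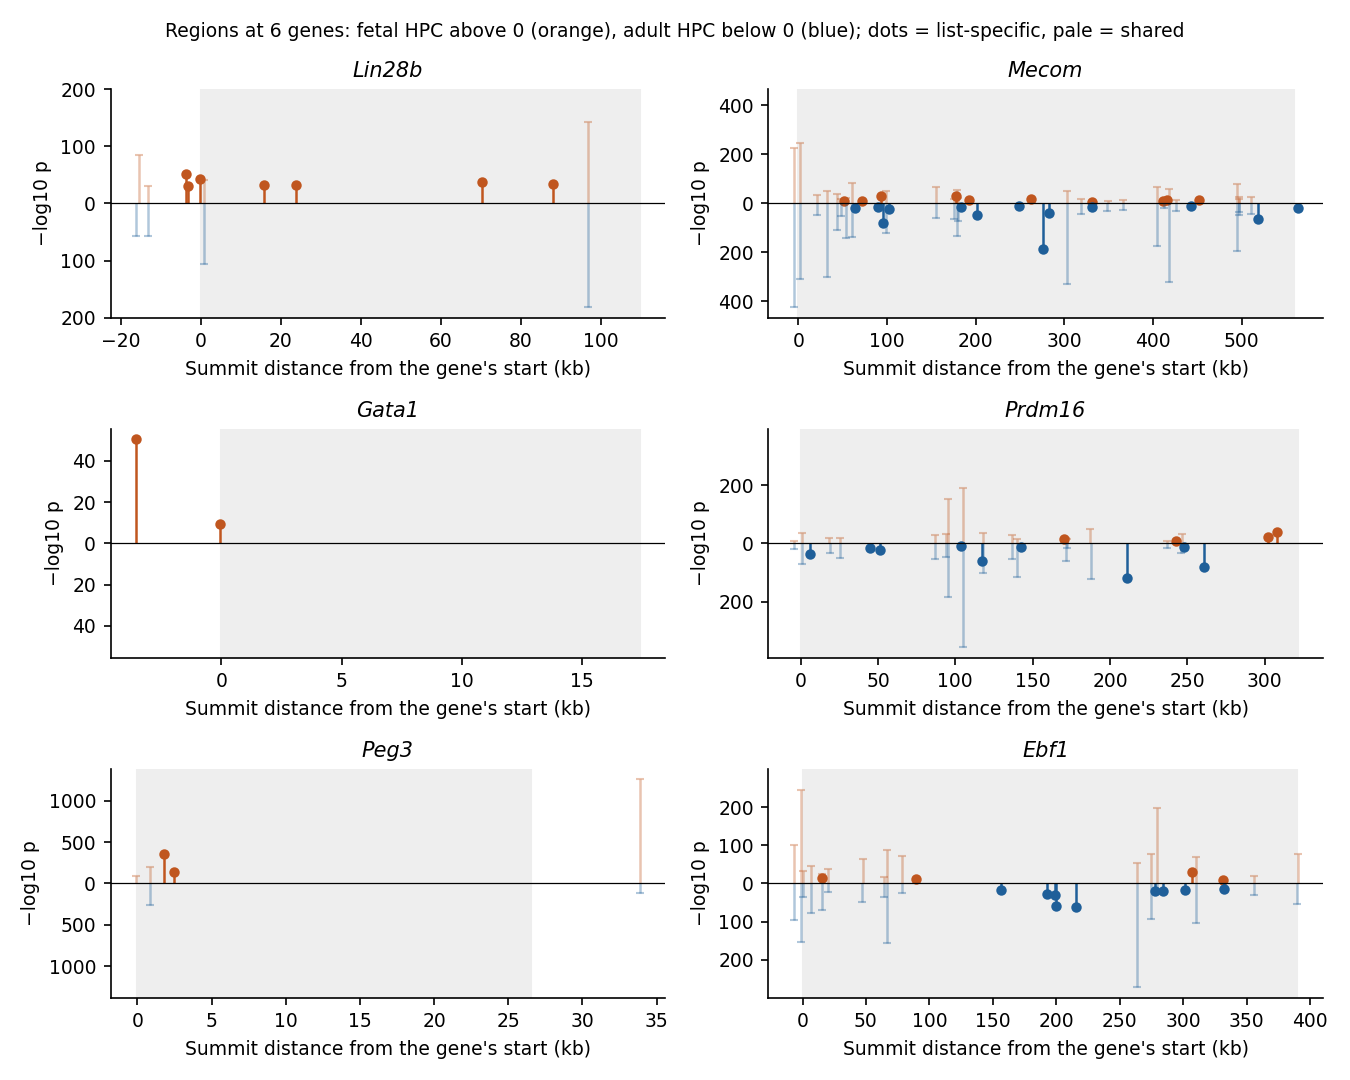
Regions at Lin28b, Gata1, Peg3, Mecom, Prdm16 and Ebf1 by the distance of their summit from the gene's start (kb, horizontal axis), with the −log10 p of fetal HPCs drawn upward in orange and of adult HPCs downward in blue. Dots are list-specific regions, pale lines are shared ones and the grey band is the length of the gene body drawn from that start. For Lin28b and Gata1 the start used lies inside the annotated gene body, so their bands are displaced from it. Lin28b and Gata1 have dots above 0 alone, and Mecom has 3 strong dots below 0.

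Stem cell genes had more adult-specific than fetal-specific strong regions, and lymphoid genes did so within 10 kb. Among 29 HSC regulators and markers, 17 of 151 strong adult regions were adult-specific (11.3%, against 6.39% genome-wide). Of 120 strong fetal regions, 5 were fetal-specific (4.17%, against 5.44%). With all strengths counted, 93 of 323 adult and 69 of 299 fetal regions were list-specific, against 24.8% and 25.2% genome-wide. In the upper 25% they had 1 adult-specific region and 0 fetal-specific ones. Mecom, a transcription factor of long-term stem cells, had 3 adult-specific regions, of 61.7, 186.9 and 82.0. The strongest was called in adult HSCs (111.1) and not in fetal HSCs. Prdm16 had 3 adult-specific regions and 1 fetal-specific region. Fli1 had 2 of each, and the single strong list-specific region of a progenitor marker lay near Cd34, in the fetal list (52.2). Hlf had 9 fetal and 15 adult regions, with no strong list-specific one.

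The 22 lymphoid genes had 9 adult-specific of 87 strong adult regions (10.3%) and 3 fetal-specific of 81 strong fetal regions (3.70%), against the same genome-wide shares. Within 50 kb the counts were 9 and 7, and in the upper 25% there was 1 of each. With all strengths counted, 46 of 168 adult and 36 of 157 fetal regions were list-specific, against 24.8% and 25.2% genome-wide. Bcl11a, which B cell development also needs, Mef2c (136.8 and 69.0) and Ebf1 (58.4 and 61.7), factors of lymphoid and B cell development, had 2 adult-specific regions each. Pax5, Rag2 and Gata3 had 1 each. Ikzf1 went the other way with 2 fetal-specific regions, of which the one inside the gene (chr11:11729045-11729560, 76.2) was called in fetal HPCs alone among the 12 lists. Dntt, the enzyme that adds bases to rearranging antigen receptors, had a fetal-specific region of 93.8 that was called in every list but adult HPCs. The 7 B cell markers had 3 adult-specific strong regions of 10, at Blk (181.8), Cd22 (82.6) and Pax5 (60.6), and no fetal-specific one. T cell markers had none. The part of B lineage cells among adult HPCs was not tested.

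Myeloid genes, 24 in all, had 2 fetal-specific of 35 strong fetal regions (5.71%) and 2 adult-specific of 39 strong adult ones (5.13%). Both were near the genome-wide 5.44% and 6.39%. Within 50 kb they had 7 adult-specific and 3 fetal-specific strong regions, without a count of all strong regions there. With all strengths counted, 27 of 86 adult and 18 of 78 fetal regions were list-specific, against 24.8% and 25.2% genome-wide. Cebpa had 4 regions in each list and Spi1 had 8 and 9, with no strong list-specific region at either. A fetal-specific region lay in Prtn3 and near Elane, which both encode granule proteases (47.6), and an adult-specific one near Cebpb (65.7), a myeloid transcription factor. Fcgr3, an antibody receptor, had an adult-specific region over its start (74.3) and a fetal-specific one farther away (41.8). Ciita, the coactivator that turns on MHC class II, had 3 strong adult-specific regions (66.2, 107.6 and 81.6), the only strong list-specific ones of the 18 genes of antigen presentation. They made up 8.11% of the 37 strong adult regions of these genes, against 6.39% genome-wide. With all strengths counted, these genes had 16 adult-specific of 70 regions and 12 fetal-specific of 63, against 24.8% and 25.2% genome-wide. The 3 strong Ciita regions were part of a stretch of 387.1 kb with 7 strong adult-specific and no strong fetal-specific region, which also holds Clec16a and Socs1. Among innate and cytokine receptor genes, 5 of 81 strong adult regions (6.17%) were adult-specific and 2 of 63 strong fetal ones (3.17%) fetal-specific, the former close to the genome-wide share. The adult-specific regions lay at Tgfbr2 (80.2 and 62.4), Tnfrsf1b (161.3), Il1rap (69.7) and Nod2 (65.2), and the fetal-specific ones at Nod1 (91.9) and Myd88 (40.5). Among homing genes, 4 of 58 strong adult regions (6.90%) were adult-specific, close to the genome-wide 6.39%, S1pr1 (138.9), Itga6 (93.5) and Itgb2 (58.6) included. Of their 61 strong fetal regions 1 (1.64%) was fetal-specific, at Esam (44.3). Among the microRNA genes with an adult-specific region within 5 kb were Mir223 (86.0), which is known for its role in granulocytes, and Mir26a-1 (196.7).

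**Figure D3:**
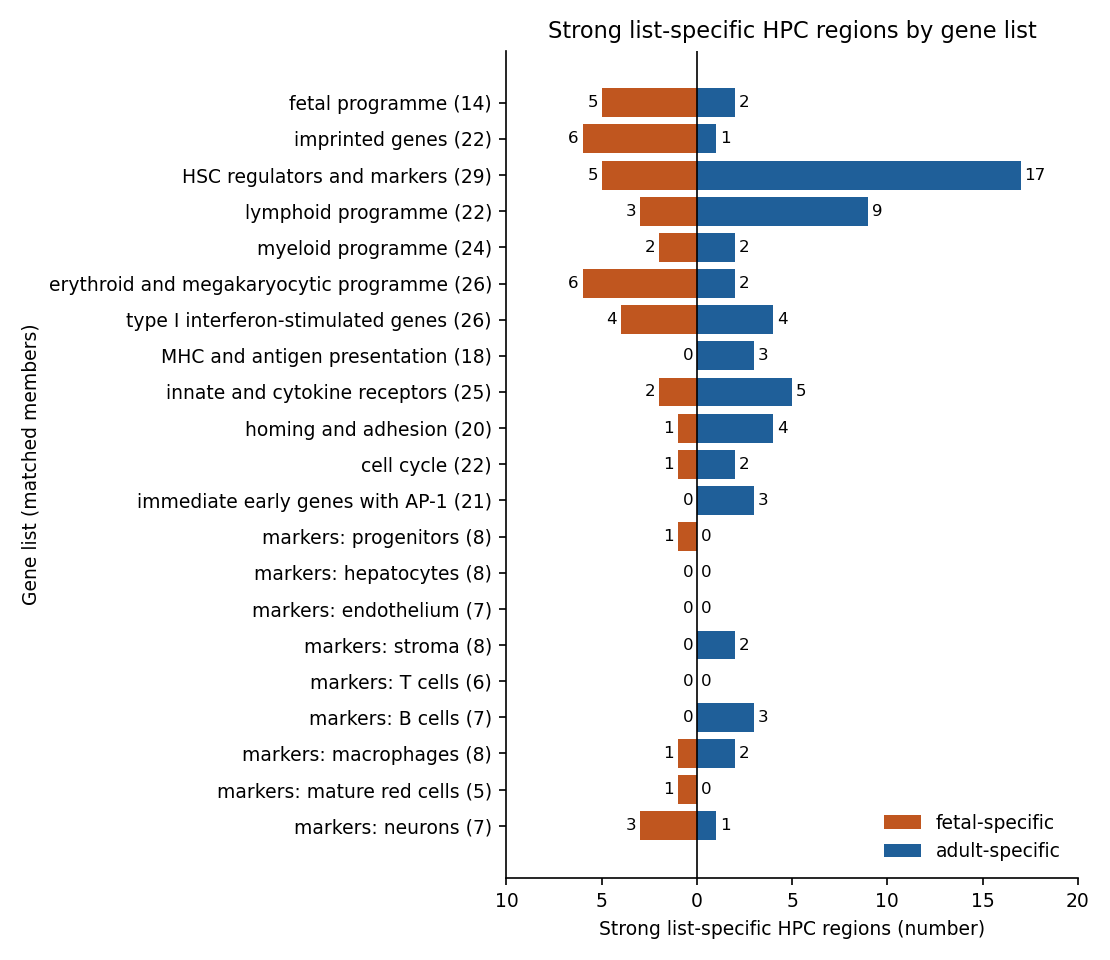
Number of strong fetal-specific (orange, left) and adult-specific (blue, right) HPC regions within 10 kb of the members of each of 21 gene lists with the number of matched members. The longest bar is that of HSC regulators, with 17 adult-specific regions, and erythroid and imprinted genes have 6 fetal-specific regions each.

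Over the 21 lists, 10 had more adult-specific, 6 more fetal-specific and 5 equally many strong regions. Genome-wide the adult-specific strong regions were also the more numerous. Immediate early genes had 3 adult-specific of 60 strong adult regions (5%, below the genome-wide 6.39%), at Ier2, Nr4a1 and Klf6, and no fetal-specific one of 62. With all strengths counted they had 12 of 95 and 10 of 92, against 24.8% and 25.2% genome-wide. Cell cycle genes had 2 adult-specific of 69 strong adult regions (2.90%) and 1 fetal-specific of 63 strong fetal ones (1.59%). Both lay below the genome-wide shares. The adult-specific regions were at Ccne1 and Mki67 and the fetal-specific one over the start of Cdkn1a, the p21 inhibitor. With all strengths counted, 34 of 132 fetal regions of cell cycle genes were fetal-specific, close to the genome-wide 25.2%. Of 113 adult regions 15 were adult-specific, against 24.8%. Interferon-stimulated genes had 4 strong regions of each kind, of 53 strong regions in each list (7.55%, against 5.44% and 6.39% genome-wide). Of any strength, 14 of 82 fetal regions were fetal-specific, against 25.2% genome-wide. The list includes the receptor genes Ifnar1 and Ifnar2, and 2 of the 14 lay at Ifnar1. Of 94 adult regions 24 were adult-specific, close to the genome-wide 24.8%.

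At gene starts, the few list-specific regions of interferon-stimulated genes belonged to adult HPCs. Of 17274 protein-coding genes with a listed start, 539 (3.12%) had a fetal-specific and 267 (1.55%) an adult-specific region of any strength over a start. Among the 26 matched genes of the interferon list, 3 starts were adult-specific (Isg15, Oas3 and Ifi44) and none was fetal-specific. A further 12 were shared, those of the receptor genes Ifnar1 and Ifnar2 included, and 4 had no region. The rest had no listed start. The strong fetal-specific regions of these genes were counted for Ifit1 (138.1, inside Ifit1bl1), Usp18 (53.8), Ifih1 (52.7) and Zbp1 (40.2), none over a listed start. The start of Oas3, a viral RNA sensor, had a −log10 p of 64.3 in adult HPCs. It was called also in adult and P14 HSCs, in HPCs at P7 and P14, and in the P7 HPCs of both the wild-type (81.4) and the Ifnar knockout (58.9) animals, and not in fetal HSCs. The start of Ifi44 had 73.1 in adult HPCs, was called in fetal HSCs (48.1) as well, and was in neither genotype of the knockout set. The region over the start of Isg15 (chr4:156200715-156200985) had a strength of 51.0 in adult HPCs, just under the limit for strong. It was called in adult HSCs (75.7), in P14 HSCs (46.7), in P7 (29.9), P14 (32.2) and P21 (14.1) HPCs, and in neither fetal list. In the set with the knockout it was called in wild-type HPCs (28.7) and HSCs (34.0) and in neither knockout list. The region over the start of Ifi206, strength 151.1 in adult HPCs, was called in P7 wild-type HPCs (76.4) and not in P7 knockout HPCs. Values at the Ifi200, Ifit, Oas and Ifna families are uncertain, because their near-identical copies can share reads.

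The letters shown above were counted at every start of a protein-coding gene. GAAANNGAAA was present at 24 of 281 adult-specific starts (8.54%, 5.55 to 12.4), at 16 of 582 fetal-specific starts (2.75%, 1.58 to 4.43), at 2.42% of shared starts and at 3.69% of starts with no region. The interval of the adult-specific share overlapped none of the intervals of the other 3 classes. Over strong regions alone the shares were 20.6% (8.70 to 37.9) of 34 adult-specific and 2.38% (0.290 to 8.34) of 84 fetal-specific starts. GAGGAAG, letters of the PU.1 type, were at 17.1% (12.9 to 22.0) of adult-specific and 9.79% (7.50 to 12.5) of fetal-specific starts, against 10.4% of all. TGTGGT, letters of the RUNX type, were at 16.7% (12.6 to 21.6) and 9.97% (7.65 to 12.7), against 12.2% of all, but starts with no region held them at 15.7%. AGATAA, the GATA letters, were at 8.76% (6.59 to 11.4) of fetal-specific and 6.76% (4.12 to 10.4) of adult-specific starts, and over strong regions alone at 11.9% (5.86 to 20.8) of 84 and 2.94% (0.0744 to 15.3) of 34. The intervals overlapped in both cases. Fetal-specific starts were richer in CG pairs, with a median of 9 in 250 bases against 5 at adult-specific, 16 at shared and 2 at starts with no region. The SP1-like letters GGGCGG were at 48.6% of fetal-specific and 34.5% of adult-specific starts. A match describes the letters and does not show binding.

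Lists that took no part in the choice of these starts were then read. Of the 24 genes whose adult-specific start held GAAANNGAAA, 7 (29.2%, 12.6 to 51.1) had a region over the start in fetal HSCs and 17 (70.8%, 48.9 to 87.4) in adult HSCs. Of the 242 genes without these letters, 131 (54.1%) and 151 (62.4%) had one. At P7, wild-type HPCs had a region over 13 of the 24 starts and Ifnar knockout HPCs over 6, and wild-type HSCs over 8 and knockout HSCs over 2. Starts without the letters were called at 94 and 80 of 242 in HPCs and at 61 and 38 in HSCs. Low calling was not particular to the IRF-like letters. Of 46 genes with the PU.1-like letters, 16 had a region in fetal HSCs and 25 in adult HSCs, against 122 and 143 of 221 without them. At P7 these 46 had 23 in wild-type and 15 in knockout HPCs, and 10 and 4 in HSCs. For 19 genes with the GATA letters the P7 numbers were 9 and 7 in HPCs, and 5 and 4 in HSCs. The intervals of the 24 genes are wide and overlap between the genotypes. The knockout lists were also shorter than the wild-type lists, with 58567 against 66044 regions in HPCs and 42459 against 45615 in HSCs.

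**Figure D4:**
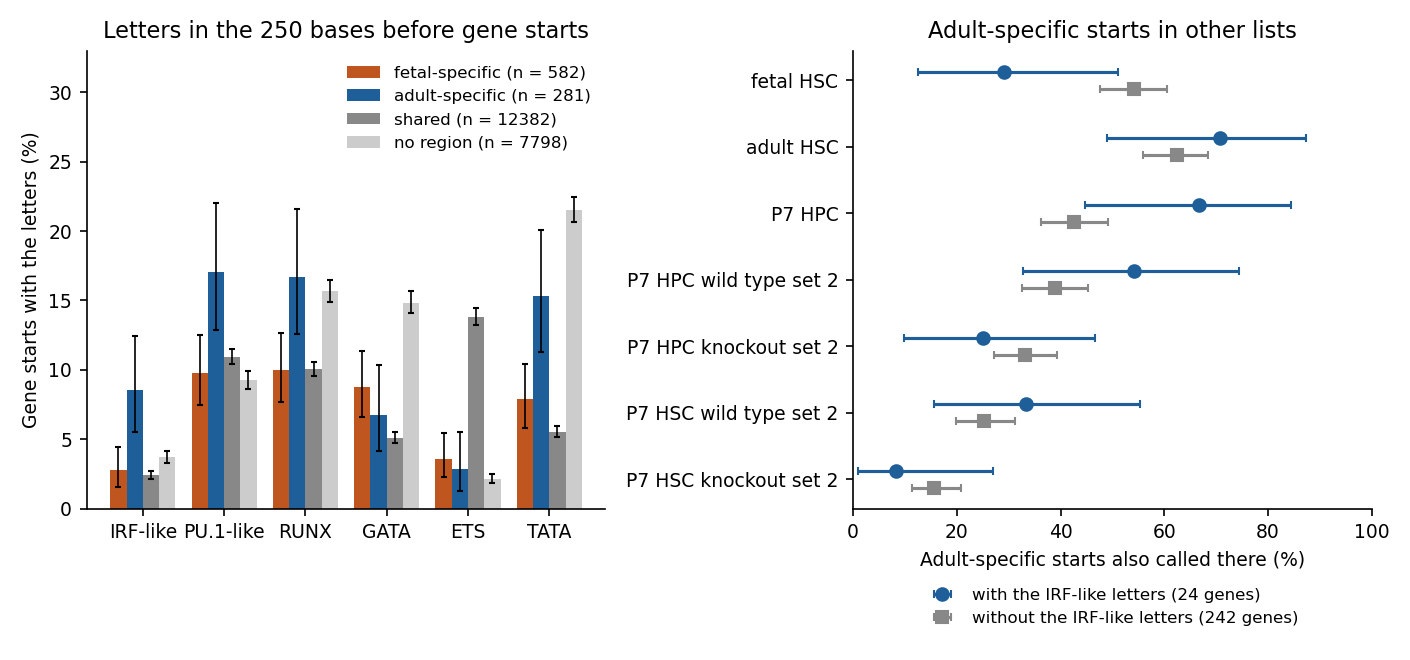
Left, percent of protein-coding gene starts with each set of letters in the 250 bases before the start, by class of start, with exact 95% intervals, where adult-specific starts reach 8.54% for the IRF-like letters against 2.75% at fetal-specific starts. Right, percent of adult-specific starts, with or without the IRF-like letters, that also had a region in 7 other lists, from 70.8% in adult HSCs to 8.33% in P7 knockout HSCs for starts with the letters.

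At the strong end, 72 fetal-specific and 31 adult-specific starts had a gene with a regular name. The leading fetal-specific starts were those of Mab21l3 (143.4), Brinp1 (119.4), a neuronal cell cycle inhibitor, Hydin (105.7), a protein of cilia, Spock3 (96.6), Slc5a7 (91.3), the choline transporter of neurons, Ackr1 (85.2), the chemokine-binding Duffy receptor of red cells and endothelium, Tmem86b (83.9) and Ano3 (83.4). The Ackr1 region was called in both HSC lists of the same ages and in no HPC list after birth except that of P7 knockout animals. The leading adult-specific starts were those of Sqor (345.7), Fam180a (283.4), H2-Q6 (196.7), an MHC class I gene with close copies, Bco2 and Il18 (160.8), which share 1 region, Ifi206, Sh2d1b1 (137.5), a signalling adaptor of natural killer cells, and Myh14 (116.0). Il18, an inflammatory cytokine, had its region in every list but fetal HPCs. Lower in the list came Mmp8 (85.5), the neutrophil collagenase, Fcrl1 (86.2), a receptor of B cells, Ccl3 (67.9), a chemokine, Padi4 (65.0), an enzyme of granulocytes, and Spic (57.3), a PU.1 relative. The Mmp8 start was called in adult, P14, P21 and P7 wild-type HPCs and in no HSC list.

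HSCs of the same age held more of the strong list-specific HPC regions than HSCs of the other age. Most of these regions were nevertheless called in both HSC lists or in neither. Of the strong fetal-specific HPC regions, 77.3% (75.5 to 78.9) were called in fetal HSCs and 58.9% (56.9 to 60.8) in adult HSCs. Of the strong adult-specific HPC regions, 40.7% (38.9 to 42.5) were called in fetal HSCs and 71.5% (69.8 to 73.2) in adult HSCs. Taken per region, 629 (25.5%) of the fetal-specific regions were called in fetal HSCs and not in adult HSCs, against 177 (7.19%) with the reverse. Among the adult-specific regions 1014 (34.95%) were called in adult HSCs alone and 120 (4.14%) in fetal HSCs alone. HSCs of both ages had 51.7% of the fetal-specific regions and 36.6% of the adult-specific ones, and neither had 15.6% and 24.3%. Of strong regions shared by fetal and adult HPCs, 93.8% in the fetal list were in both HSC lists. The 117 fetal-specific regions over gene starts were called in fetal HSCs in 89.7% and in adult HSCs in 76.1% of cases.

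After birth, each HPC list held more of the adult-specific than of the fetal-specific regions. The P7, P14 and P21 HPC lists held 68.2%, 85.1% and 73.0% of the strong adult-specific regions and 47.8%, 53.5% and 32.9% of the strong fetal-specific ones. The P7 and P21 lists were shorter, with 78874 and 74297 regions, than that of P14 with 91043. None of the P14 and P21 HPC libraries names its own list in its description. All 3 lists had 1517 (52.3%) of the adult-specific regions and 499 (20.3%) of the fetal-specific ones, and none had 185 (6.38%) and 812 (32.98%). A further 411 (16.7%) fetal-specific regions were called at P7 and P14 and missing at P21, as was the one over the listed start of Lin28b. In the separate P7 set, wild-type HPCs had 52.3% (50.5 to 54.1) and knockout HPCs 37.6% (35.9 to 39.4) of the adult-specific regions. For fetal-specific regions the values were 26.8% (25.03 to 28.6) and 29.0% (27.2 to 30.8), and for shared strong regions of the fetal list 84.9% and 82.1%.

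**Figure D5:**
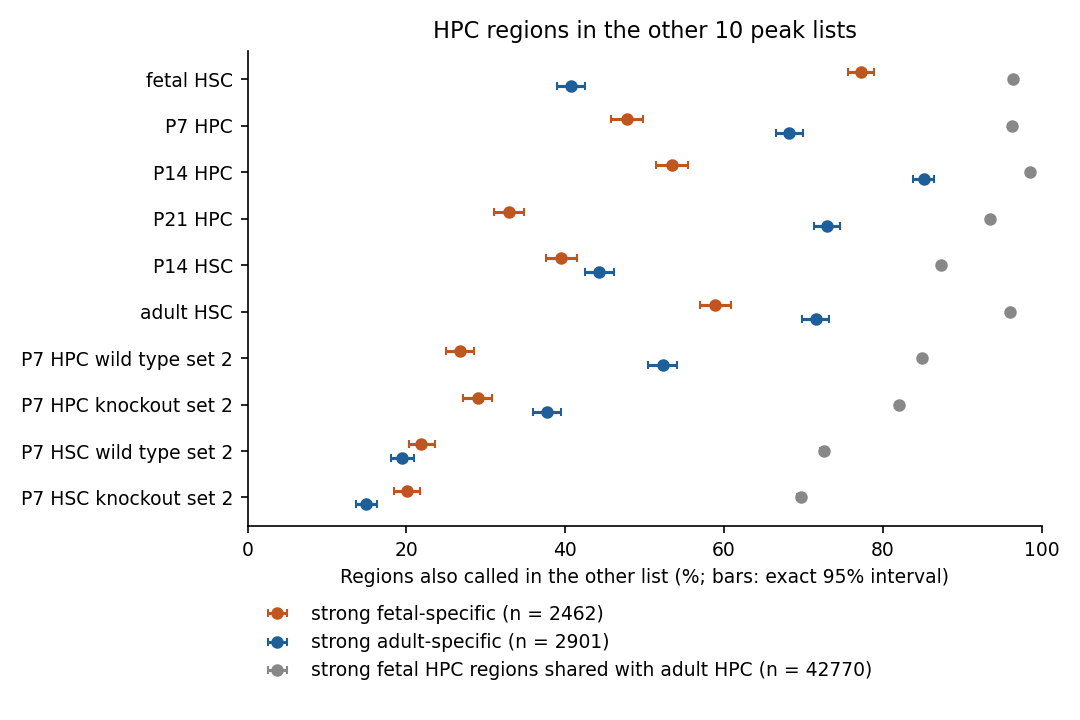
Percent of strong fetal-specific (orange), strong adult-specific (blue) and shared strong (grey) HPC regions that were also called in each of the other 10 lists, with exact 95% intervals. Fetal HSCs held 77.3% of the fetal-specific regions and 40.7% of the adult-specific ones, and shared regions lie to the right of both in every list.

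At the extremes, 221 strong fetal-specific regions (8.98%) were called in both fetal lists and in no postnatal list, and 207 (8.41%) in fetal HPCs alone of the 12 lists. Among those within 50 kb of a gene with a regular name, the former were led by regions near Ica1 (110.3), Sertad4 (106.0) and Cdh8 (98.8), a cadherin, and included one near Cd36 (82.1), the fatty acid receptor of erythroid progenitors, platelets and macrophages. A stronger region of this pattern (211.9, chr12:23189075-23190118) lay nearest to a predicted gene. The reverse pattern, in which every postnatal list had the region and neither fetal list did, was found for 30 adult-specific regions (1.03%), led by those at Tcof1, Col27a1 (395.2), Cpne2 (261.1) and B4galt5 (181.1). Both adult lists and no other list had 82 (2.83%), led by regions near Cep162 (265.8) and Stard3nl (167.8). Every list except the 2 adult ones had 8 fetal-specific regions, among them those at Osbpl8 (180.7) and Igf2bp3. Regions missing from 1 list alone were also found: 135 (5.48%) of the fetal-specific strong regions were in all lists but adult HPCs, and 202 (6.96%) of the adult-specific ones in all lists but fetal HPCs.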

How the data were processed

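ATAC-seq was measured in 35 libraries of 12 groups, with 1 deposited pooled peak list per group. Tn5 tagmentation is stated per the labels' protocols. Per the submitters' processing notes the tools were Bowtie2 and MACS2 and the build mm10 (GRCm38). Versions and settings were not given in the sources used. Per the deposited lists, each peak has a score, a fold (ratio) over background, and the −log10 of its p-value and q-value, all made by the authors. The score was not used. Groups and lists were matched by the group name each list carries.

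Regions were merged, compared and annotated in Python 3.11.15 with pandas 2.3.3, numpy 2.4.6 and scipy 1.17.1. The RefSeq table of GRCm38.p6 gave 21631 protein-coding genes and 32619 start windows (250 bases before to 50 after a start), 21045 of them of protein-coding genes. A start was list-specific when a list-specific region, and no shared one, overlapped its window. The 21 gene lists held 335 members (316 genes), and Mx1 and Trac were not matched by symbol. Overlap and gene counts were checked by direct recounts on samples of the HPC lists and genes, and by removing regions from a copy of the fetal list. The motif search was checked on random sequences with planted letters.

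The regions, gene lists and alternatives were chosen with earlier results of these data known. Named genes are, per direction, the 15 strongest list-specific regions with a gene end within 50 kb, the 8 genes with most strong list-specific regions, the 8 strongest starts, up to 3 members per list with a difference of at least 2, and a fixed set that includes Lin28b, Gata1, Mecom, Ebf1 and Ikzf1. Of these, those the text turns on are given. Other single regions of list members, the later starts, the microRNAs, the age extremes and the printed sequences were picked after their values were seen. Regions on chromosome Y were left out. Results of some genes are not reported here.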

Additional observations from a re-analysis of the deposited data

Results flagged for a closer look

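In 3 gene lists the balance of strong list-specific regions had opposite signs in HPCs and in HSCs. Each is a difference of small counts from 1 list per group, and the difference between the cell types was not tested. For the fetal programme, adult-specific minus fetal-specific regions came to -3 in HPCs (2 and 5), while HSCs had 2 adult-specific and 1 fetal-specific region. For imprinted genes it was -5 in HPCs (1 and 6), against 2 and 1 in HSCs. For the lymphoid programme it was 6 in HPCs (9 and 3), against 2 adult-specific and 3 fetal-specific regions in HSCs.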

How the results depend on the processing

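The number of list-specific regions depended on strength. From 22841 fetal-specific and 22480 adult-specific regions it fell to 2462 and 2901 in the upper 50% and 248 and 391 in the upper 25%, and the larger number passed from the fetal to the adult side. A −log10 q of at least 5, equal list lengths, an overlap of 50% of the shorter region, and merging over 100 bp left both counts within 1.5 times. The share of strong regions near gene ends rose from 7.15% and 4.41% within 1 kb to 17.1% (fetal-specific) and 15.1% (adult-specific) within 5 kb, and to 5.80% for adult-specific regions of all strengths. The share of fetal-specific regions in fetal HSCs minus that in adult HSCs was 18.4 points, and 13.7 with all regions. For adult-specific regions it was -30.8 points, -47.3 in the upper 25% and -13.2 with all regions. Lists with more adult-specific than fetal-specific regions numbered 10, and 4 in the upper 25%, where few regions remained. In that setting the erythroid list turned to a difference of 1 (adult-specific minus fetal-specific). The cell cycle list turned to -19 with all regions, from 1, with 15 of 113 adult and 34 of 132 fetal regions list-specific. Interferon-stimulated genes went from 4 of each to 24 adult-specific of 94 and 14 fetal-specific of 82 with all regions. The genome-wide shares there were 24.8% and 25.2%. Chosen after seeing the data, strong regions alone gave the IRF-like letters at 20.6% (8.70 to 37.9) of 34 adult-specific and 2.38% of 84 fetal-specific starts, and the 300-base window gave 8.90% and 2.92%. No paired analysis was possible because each group had 1 pooled list, and for the same reason no library could be left out. The causes of these changes were not tested.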
